A study of Mus musculus with 16 samples.

Results

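Ly6a, Ly6c1, Ly6c2, Ly6e, Ly6i and Ly6g are genes of the Ly6 family of surface proteins, and they were taken by symbol from the deposited count table, where they made up 6 of 24411 genes. RNA was sequenced from engrafted brain macrophages and host microglia of 8 bone marrow (BM) chimeras. WT C57BL/6J recipients, 6 weeks old, had been irradiated with 950 cGy and given congenic WT BM. The study's text puts 9 months between transfer and sorting, while the labels allow 3.5 or 9 months and assign neither to a library. Mice 1 to 4 received 2.5 mg/kg lipopolysaccharide (LPS), a bacterial endotoxin that triggers a systemic inflammatory reaction, 12 h before they were sacrificed. Mice 5 to 8 were not injected and served as control. Each brain gave both populations, as CD45.1 low cells for the graft and CD45.2 low cells for the host, which gave 4 groups of 4 libraries with 10000 cells sorted for each.

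Both gates kept CD11b-positive cells and left out cells that stained for Ly6C or Ly6G, so the protein products of members of the family were themselves used in the sort. The gate concerned surface protein, and the values here are RNA. Host microglia had gone through the irradiation and engrafted cells had not, so that origin and irradiation cannot be told apart, and every mouse, control or LPS, was a chimera.

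Ly6 proteins are small, share a compact cysteine-rich fold with the urokinase receptor, and are mostly held in the outer membrane leaflet by a glycosylphosphatidylinositol (GPI) anchor. Ly6C, encoded by the near-identical genes Ly6c1 and Ly6c2, is the classical marker of inflammatory monocytes, and Ly6G is that of neutrophils. Ly6a encodes Sca-1, known from haematopoietic stem cells and induced by interferons in many cell types, and Ly6e is a broadly expressed, interferon-inducible member known for effects on virus entry.

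The 6 genes lie side by side on chromosome 15 (mm9, chr15:74785501-74989558), in a span of 204058 bp. In order of position they are Ly6e (NM_001164036, plus strand, chr15:74785501-74790335), Ly6i (NM_020498, minus strand, chr15:74810242-74813860), Ly6a (NM_010738, minus strand, chr15:74825307-74828461), Ly6c1 (NM_001252055, minus strand, chr15:74875445-74879267), Ly6c2 (NM_001099217, minus strand, chr15:74938591-74942379) and Ly6g (NM_001310438, plus strand, chr15:74985691-74989558). Of the 17 other genes within 250 kb of that span, 8 had no read in any library and 0 passed the filter for low counts in any comparison. The members that passed it were therefore the only genes of this neighbourhood with enough reads for a test.

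RefSeq promoter windows (GRCm38.p6) were at hand for 3 of the 6 members, Ly6c1, Ly6c2 and Ly6g. They are shown because these genes encode the markers used in the sort, and because they differ in the data although the sequences are close relatives. Each line gives the 250 bases before the most upstream start site, 5′ to 3′ on the strand of the gene. Ly6c1 is at chr15:75048838-75049087 (minus), Ly6c2 at chr15:75111972-75112221 (minus) and Ly6g at chr15:75155011-75155260 (plus). Capitals mark the letters GAGGAA, the core of a site for the myeloid factor PU.1, or its reverse complement TTCCTC, and the letters TATAAA of a TATA box.

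Ly6c1: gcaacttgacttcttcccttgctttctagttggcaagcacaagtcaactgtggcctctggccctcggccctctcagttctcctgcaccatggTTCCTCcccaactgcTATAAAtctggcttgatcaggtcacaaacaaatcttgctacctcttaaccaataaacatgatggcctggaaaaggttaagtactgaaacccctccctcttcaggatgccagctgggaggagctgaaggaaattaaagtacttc

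Ly6c2: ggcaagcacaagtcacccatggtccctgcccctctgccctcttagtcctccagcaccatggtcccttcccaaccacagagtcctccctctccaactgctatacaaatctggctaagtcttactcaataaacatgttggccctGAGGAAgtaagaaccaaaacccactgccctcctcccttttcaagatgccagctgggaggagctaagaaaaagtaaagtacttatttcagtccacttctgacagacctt

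Ly6g: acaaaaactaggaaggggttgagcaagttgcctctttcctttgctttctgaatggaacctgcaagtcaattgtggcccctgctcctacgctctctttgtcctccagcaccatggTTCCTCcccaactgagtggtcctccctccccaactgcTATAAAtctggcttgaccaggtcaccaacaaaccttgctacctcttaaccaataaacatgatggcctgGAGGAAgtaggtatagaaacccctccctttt

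Over the bases that could be aligned, the Ly6c1 and Ly6c2 windows were 81.0% identical, those of Ly6c1 and Ly6g 85.8%, and those of Ly6c2 and Ly6g 81.3%. GAGGAA was searched on both strands and occurred in all 3 windows, as it did in 23.1% of 27025 promoter windows of the same length. TATAAA was searched on both strands too, and it was found in the windows of Ly6c1 and Ly6g (13% of all windows). Neither GAAA, 2 free bases and GAAA, the core of an interferon-stimulated response element (3.05% of all windows), nor TTCNNNGAA, a STAT site (7.14%), was found in the 3 windows on either strand. These are matches of letters in a short window and were not tested for function.

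Depth was modest. Gene reads ranged from 395283 to 1203597 per library, the lowest in engrafted cells of LPS mouse 4, and where no read was counted the level may still be that of 3 reads, or 2.34 to 8.73 CPM (counts scaled to a common library size), a limit that covers counting error only. Markers of microglia and brain macrophages (9 genes, among them Cx3cr1, P2ry12 and Tmem119) were read in all 4 groups, with summed levels of 23200 to 25860 CPM in host control, 16250 to 18000 CPM in engrafted control, 12250 to 13690 CPM in host LPS and 6590 to 8201 CPM in engrafted LPS libraries. The library of engrafted control mouse 5 stood apart, with 158 CPM of the keratin gene Krt8 and 177 CPM of the matrix gene Dcn, against at most 20.9 and 25.01 CPM in the other 15 libraries. Both genes were picked after their values were seen. Where a result is given without this library, the text says so, and all other results for engrafted control cells include it.

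Ly6c2 had little RNA in host microglia and in unchallenged engrafted cells, and a great deal in engrafted cells after LPS. In engrafted cells of LPS mice 1 to 4 it stood at 850.5, 858, 703 and 428 CPM, from 775, 714, 549 and 147 reads. In host microglia from the brains of those same mice it stood at 3.39, 5.84, 3.56 and 9.775 CPM, from 3, 6, 3 and 7 reads. The groups did not overlap (10.5% of all genes tested were higher without overlap), and the lowest engrafted library was that of mouse 4, which was also the shallowest. Within a mouse, the level in engrafted cells was 251, 147, 197 and 43.8 times that in host microglia.

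Across the fitted genes, the difference in Ly6c2 between engrafted cells and host microglia after LPS was 6.48 ± 0.33 (log2, SE, n = 4 per group, edgeR quasi-likelihood test with Benjamini-Hochberg adjusted p = 2.8e-10), or 89.4-fold. This ranked 3 of the 7843 genes tested by size. Since the host libraries held 19 reads in all, the fitted fold depended on the prior count and on these few reads, and the ratio of pooled counts was 139, with an exact 95% counting interval of 88.9 to 232.

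Without LPS, Ly6c2 was also higher in engrafted cells, at a far smaller size. Engrafted control libraries of mice 5 to 8 held 24.6, 36.5, 40.2 and 22.25 CPM, and host control libraries 11.9, 11.5, 1.56 and 16.1 CPM. The groups did not overlap, as for 12.7% of the genes tested in that direction, and the highest host library, that of mouse 8, came close to the lowest engrafted one, also that of mouse 8. The difference was 1.44 ± 0.35 on the log2 scale (SE, n = 4 per group, edgeR adjusted p = 0.00251). Without the engrafted library of mouse 5 it kept its call, as it did under each of 15 alternatives, which gave 1.07 to 1.72.

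LPS raised Ly6c2 in engrafted cells from 30.9 ± 8.82 to 710 ± 201 CPM (SD, n = 4 per group). The change was 4.42 ± 0.27 on the log2 scale (SE, edgeR adjusted p = 2.02e-10), or 21.4-fold, which ranked 30 of 7609 genes by size. Without the engrafted control library of mouse 5 it was 4.3 ± 0.31 (edgeR adjusted p = 3.89e-08). The controls and the LPS group are different mice, 4 on each side, and their libraries did not overlap (17.4% of all tested genes were higher without overlap).

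In host microglia the means lay the other way. Ly6c2 averaged 10.3 ± 6.17 CPM in control and 5.64 ± 2.97 CPM after LPS (SD, n = 4 per group), with overlapping libraries. The gene had too few reads there for the fit across genes, and an exact permutation test over the libraries (two-sided, smallest possible p = 0.0286) gave p = 0.257. The pooled ratio was 0.575, with a counting interval of 0.313 to 1.02. The host control library of mouse 7, with 2 reads, weighed on this. Without it the gene passed the filter and was called lower, at -1.01 ± 0.35 on the log2 scale (edgeR adjusted p = 0.028), and in the other settings that tested it the difference was -0.51 to -0.88 and did not pass. The difference between both LPS changes, tested in all 16 libraries, was 5.06 ± 0.56 on the log2 scale (edgeR adjusted p = 9.87e-07, rank 6 of 8847 genes).

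**Figure D1:**
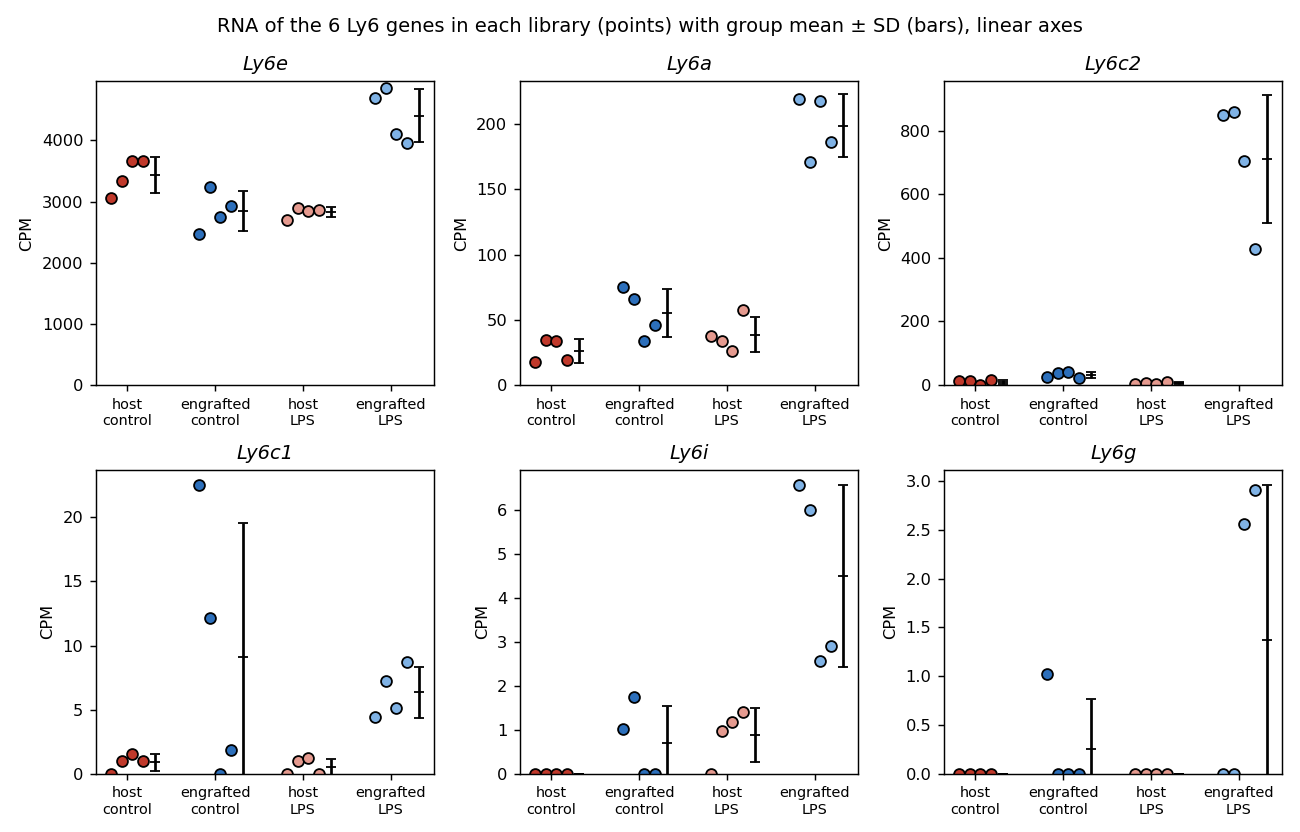
CPM of each member (vertical, linear axes that start at 0) in the 4 groups, with 1 point per library and the mean ± SD beside them, cut off at 0. Engrafted LPS libraries stand above all others for Ly6c2 (427.8 CPM or more), Ly6a (170.6 CPM or more) and Ly6e (3958 CPM or more), while Ly6c1, Ly6i and Ly6g rest on few reads.

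Ly6a, which encodes Sca-1, was highest in engrafted cells after LPS too, with a smaller difference. Engrafted cells of LPS mice 1 to 4 held 219.5, 171, 218 and 186 CPM, and host microglia of those mice 37.25, 34.0, 26.1 and 57.25 CPM. The highest host library, that of mouse 4, stayed below the lowest engrafted one, that of mouse 2. The difference was 2.32 ± 0.22 on the log2 scale (SE, n = 4 per group, edgeR adjusted p = 3.84e-07), and in single mice the ratio was 5.89, 5.01, 8.33 and 3.25.

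In unchallenged mice, Ly6a differed by about 2-fold and the libraries overlapped. Engrafted cells of mice 5 to 8 held 74.7, 66.1, 33.5 and 46.4 CPM against 17.8, 34.6, 33.5 and 19.2 CPM in host microglia. In mouse 7 both populations stood at the same level. The difference was 1.01 ± 0.24 on the log2 scale (SE, n = 4 per group, edgeR adjusted p = 0.00247), just past the 2-fold limit. Its adjusted p stayed below 0.05 in all 15 alternatives, but the fold did not exceed 2 in 8 of them. The log2 value was 0.97 with the mouse as a block, 0.80 without the engrafted library of mouse 5 (adjusted p = 0.0245) and 0.94 without that of mouse 6, and 0.89 and 0.88 without the host libraries of mice 5 and 8.

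LPS raised Ly6a in engrafted cells, from 55.2 ± 18.7 to 198.5 ± 24.1 CPM (SD, n = 4 per group). The change was 1.78 ± 0.21 on the log2 scale (SE, edgeR adjusted p = 1.75e-06), with no overlap between control and LPS libraries. Without the engrafted control library of mouse 5 it was 1.96 ± 0.23 (edgeR adjusted p = 6.08e-06). In host microglia the means were 26.3 ± 9.03 and 38.7 ± 13.2 CPM, the libraries overlapped, and the log2 difference of 0.46 ± 0.25 did not pass (edgeR adjusted p = 0.15).

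The LPS changes of Ly6a in the 2 populations differed by 1.31 ± 0.35 on the log2 scale (SE, edgeR adjusted p = 0.024). That call was lost when any 1 of 5 libraries was left out, namely the engrafted libraries of LPS mouse 1 and control mouse 7 and the host libraries of LPS mouse 3, control mouse 6 and control mouse 7. The difference then was 1.18 to 1.26, with adjusted p from 0.0503 to 0.0833. Between host LPS (26.1 to 57.25 CPM) and engrafted control (33.5 to 74.7 CPM), the groups next to each other in the order of means, the libraries overlapped.

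Ly6e was read in every library, from 1360 to 4705 times, so its values carry the smallest errors of the family. In unchallenged mice it stood at 3061, 3343, 3665 and 3662 CPM in host microglia and at 2463, 3239, 2748 and 2926 CPM in engrafted cells. After LPS it stood at 2707, 2900, 2842 and 2856 CPM in host microglia and at 4702, 4853, 4112 and 3958 CPM in engrafted cells. Engrafted cells of every control mouse were below their own host microglia (ratios 0.75 to 0.97), and those of every LPS mouse were above them (1.39 to 1.74).

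None of the single differences in Ly6e reached 2-fold. Engrafted cells exceeded host microglia after LPS by 0.65 ± 0.17 on the log2 scale (SE, n = 4 per group, edgeR adjusted p = 0.0112), and the LPS group exceeded the control group within engrafted cells by 0.64 ± 0.17 (edgeR adjusted p = 0.00474). Both pairs of groups did not overlap. Without the engrafted control library of mouse 5, the LPS difference within engrafted cells was 0.56 ± 0.17 (edgeR adjusted p = 0.0167). Scaling by library totals moved the median of all genes by -0.14 in the first of these comparisons, and it moved the share of higher genes among those called from 62.1 to 50.4%. In that comparison Ly6e ranged from 0.49 to 0.71 over 15 alternatives and never reached 2-fold.

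In host microglia the LPS group was lower than the control group in Ly6e by -0.29 ± 0.13 on the log2 scale, without overlap, yet this did not pass the test (edgeR adjusted p = 0.0892). Without LPS, engrafted cells differed from host microglia by -0.26 ± 0.11 (edgeR adjusted p = 0.0647), with overlapping libraries. The LPS changes of both populations differed by 0.91 ± 0.19 on the log2 scale (edgeR adjusted p = 0.00369), under the 2-fold limit as well. Over 22 alternatives this difference was 0.85 to 0.98, with adjusted p of at most 0.0118.

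**Figure D2:**
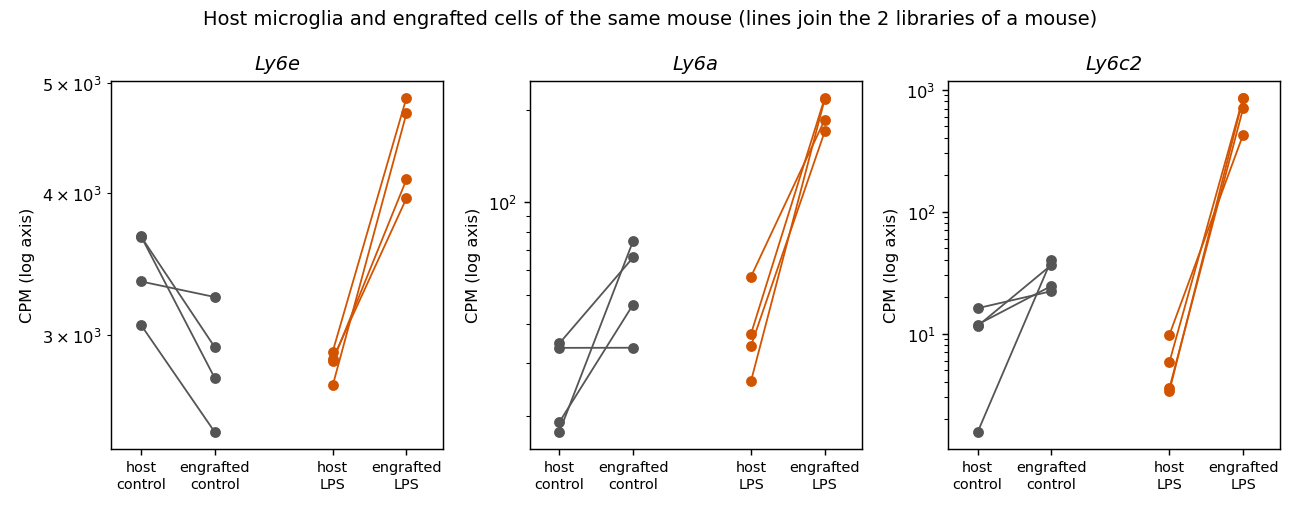
CPM on log axes of Ly6e, Ly6a and Ly6c2, with a line from the host library to the engrafted library of each mouse, grey for control and orange for LPS. Lines of Ly6e slope down in the 4 control mice (ratios 0.75 to 0.97) and up in the 4 LPS mice (1.39 to 1.74), and those of Ly6c2 slope up in LPS mice with ratios of 43.8 to 251.

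Ly6c1, Ly6i and Ly6g did not pass the filter for low counts in any comparison, and their reads are given as counted. For Ly6c1, which blood vessel endothelium also carries, engrafted cells of LPS mice 1 to 4 held 4, 6, 4 and 3 reads and their host microglia 0, 1, 1 and 0. Engrafted control libraries of mice 5 to 8 held 22, 7, 0 and 1 reads, so that 22 of 30 came from the library that stood apart, and the host controls held 0, 1, 2 and 1. Engrafted cells and host microglia did not overlap after LPS (6.36 ± 1.98 against 0.54 ± 0.63 CPM, SD, n = 4 per group, exact permutation p = 0.0286, adjusted p = 0.124 over 13 such tests). In unchallenged mice the means were 9.14 ± 10.4 and 0.88 ± 0.65 CPM with overlap (exact permutation p = 0.229), and the difference of 8.25 CPM became 3.79 CPM without mouse 5. With no filter on low counts edgeR called Ly6c1 higher in engrafted cells without LPS (1.83 ± 0.47, adjusted p = 0.000981) and with it (1.47 ± 0.44, adjusted p = 0.00956). For the call without LPS, 22 of the 30 engrafted reads came from mouse 5, and this fit was not repeated without that library.

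Ly6i, a less studied member of the cluster, had 14 reads in engrafted cells after LPS, as 6, 5, 2 and 1 reads in mice 1 to 4. It had 2 reads in the engrafted control, 3 in the host LPS and 0 in the host control libraries. Engrafted LPS libraries stood above the engrafted control libraries (4.52 ± 2.07 against 0.69 ± 0.85 CPM, SD, n = 4 per group) and above the host LPS libraries (0.89 ± 0.62 CPM), each without overlap and with an exact permutation p of 0.0286 (adjusted p = 0.124). The pooled ratios were 6.56, with a counting interval of 1.51 to 59.5, and 5.65, with one of 1.58 to 30.7.

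Ly6g was all but unread. It had 3 reads in engrafted LPS libraries, in mice 3 and 4, 1 read in engrafted control mouse 5, and 0 in the 8 host libraries, which allows up to 2.34 to 4.45 CPM in a host library. No difference in Ly6g could be detected at this depth.

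Among the 6 members, the test for engrafted cells against host microglia therefore called Ly6c2 and Ly6a higher both without LPS, where 5.66% of the genes tested were called higher, and with LPS (6.43%). LPS raised the same 2 genes in engrafted cells, where 9.27% of tested genes were called higher. In host microglia LPS changed 0 of the 2 members that could be tested (16.1% of all tested genes were called in either direction, and 3945 of 8238 had an unadjusted p below 0.05). The unadjusted p was below 0.05 for 1 of those 2 members, Ly6e, and DESeq2 also called 0. Ly6c2 and Ly6a had a called difference between both LPS changes, in the direction of a larger change in engrafted cells (2.36% of tested genes). These comparisons share libraries. Non-overlapping libraries were counted in engrafted cells against host microglia after LPS for 5 members, all but Ly6g, and all higher, against 10.5% of the genes tested. LPS against control in engrafted cells gave 4 such members, Ly6e, Ly6i, Ly6a and Ly6c2, all higher (17.4%), and in host microglia 1, Ly6e, lower (18.7%). Ly6i and Ly6c1 are among these although they were under the filter for low counts, while the percentages are over genes past it, so that for these 2 genes the percentages are no like measure.

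**Figure D3:**
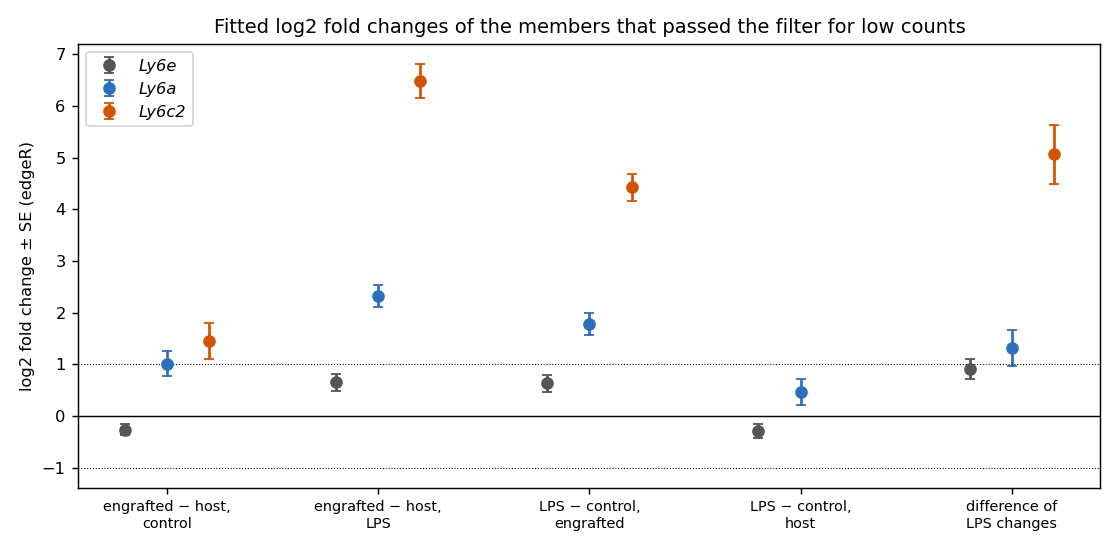
Fitted log2 fold changes (vertical, ± SE, edgeR) of Ly6e, Ly6a and Ly6c2 in the 5 comparisons, with dotted lines at the 2-fold limit. Ly6c2 stands at 1.44, 6.48, 4.42 and 5.06 and has no point for LPS in host microglia, where it had too few reads, while Ly6e stays within the dotted lines.

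Reads of these paralogs can be hard to tell apart. In the transcripts of the mm9 annotation, Ly6c1 and Ly6c2 were 97.7% identical over 796 aligned bases, against 85.5% for Ly6a and Ly6c1 and 77.2% for Ly6e and Ly6c2. The library protocol reads near the 3′ end. In the last 400 bases of the transcript, 24.2% of the 50-base words of Ly6c1 and 24.8% of those of Ly6c2 also occurred elsewhere in the genome, in each case at the other gene, against 12.8% for Ly6a, 5.7% for Ly6i and 0% for Ly6e. The Ly6g transcript of that annotation was only 336 bases long, against 916 bases in the counted model, so no share is given for it. Reads from such stretches are not unique and would not be counted, so the counts of Ly6c1 and Ly6c2 would miss some of their reads. The share of such words was near equal for both genes, and an effect on the split between them was not tested. The word length of 50 was a choice, since the read length is not given in the sources used here. With 2185 reads for Ly6c2 and 17 for Ly6c1 in engrafted LPS libraries, nearly all reads of the pair were counted on Ly6c2.

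Ly6c2 took 14.7, 14.55, 13.9 and 9.33% of all reads on the 6 members in engrafted cells of LPS mice 1 to 4. It took 0.743 to 1.425% in engrafted control libraries and 0.0421 to 0.436% in host libraries. These are shares of reads, not of transcripts per length, and most other reads were Ly6e.

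Markers of classical monocytes, the cells that Ly6C defines, had their highest sum in the engrafted LPS libraries, as Ly6c2 did. The list held 10 names that stood for 9 genes in the table, none of them a member of the family, and Mcpt8 was at 0 in all 16 libraries. Its summed level was 10.9 to 21.2 CPM in host control, 18.5 to 67.0 CPM in host LPS, 200 to 352 CPM in engrafted control and 1836 to 5338 CPM in engrafted LPS libraries. In engrafted LPS mice 1 to 4 the sum was 5338, 3322, 2237 and 1836 CPM, highest in mouse 1 and lowest in mouse 4. Most of this sum was the single gene Hp (2187 ± 1322 CPM, SD, n = 4). In host libraries the median sum was 14.9 CPM in control and 45.65 CPM after LPS, whereas the means of Ly6c2 were 10.3 and 5.64 CPM. The list genes Hp and Fn1 averaged 6.12 and 1.46 CPM in host control and 17.5 and 16.3 CPM in host LPS libraries.

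After LPS, 8 of the 8 tested genes of this list were higher in engrafted cells relative to host microglia, with a median log2 fold change of 4.79 against -0.01 over all genes. Within engrafted cells LPS raised 7 of 8, among them Hp, which encodes haptoglobin (6.63 ± 0.43, edgeR adjusted p = 4.78e-10), Plac8 (4.04 ± 0.31, adjusted p = 3.91e-09) and the chitinase-like Chil3 (3.05 ± 0.28, adjusted p = 5.52e-08). Ccr2, the chemokine receptor with which these monocytes leave the bone marrow, went the other way. It fell by 1.73 on the log2 scale (SE 0.28, adjusted p = 5.52e-05), from 160 ± 66.8 to 46.2 ± 13.4 CPM (SD, n = 4 per group). The part of such cells in the Ly6c2 result was not tested. In bulk samples of this kind, fewer cells of a type and less RNA per cell cannot be told apart.

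Neutrophil markers (14 genes) summed to 148 to 312 CPM in host libraries, 400.5 to 1542 CPM in engrafted control and 2804 to 4845 CPM in engrafted LPS libraries. Each of the 14 genes had a read in at least 1 engrafted LPS library, but 0, 6, 3 and 1 of them had none in mice 1 to 4. Most of the last sum was Lcn2, which encodes lipocalin 2 (3301 ± 933 CPM). The largest part of the sum was Csf3r in host control libraries (195 ± 52.3 CPM) and Lcn2 in host LPS libraries (160 ± 93.8 CPM). Without LPS, 4 of 5 tested genes of this list were called higher in engrafted cells relative to host microglia (5.66% of all genes tested). Of 7 list genes tested for LPS in engrafted cells, Lcn2 and Mmp8 rose (5.63 ± 0.39 and 3.25 ± 0.38, adjusted p = 9.21e-10 and 1.17e-06) and Camp, a granule protein gene, fell (-1.69 ± 0.58, adjusted p = 0.0266). S100a8, S100a9 and Ngp did not pass, and Csf3r fell by less than 2-fold (-0.85 ± 0.21, edgeR adjusted p = 0.00327). Ly6g, the defining surface marker, had 3 reads in these libraries, as given above.

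Endothelial markers bear on Ly6c1 and Ly6a, which brain vessels carry. Their sum over 10 genes was 46.0 to 68.5 CPM in host control, 31.5 to 71.3 CPM in engrafted control, 94.8 to 146 CPM in host LPS and 82.0 to 148 CPM in engrafted LPS libraries. It overlapped between engrafted cells and host microglia on both sides. Most of it after LPS was the glucose transporter gene Slc2a1 (104 ± 16.4 CPM in host and 95.5 ± 26.5 CPM in engrafted libraries, SD, n = 4 per group), which LPS raised in both populations (1.59 ± 0.19, edgeR adjusted p = 8.9e-07, and 1.61 ± 0.25, adjusted p = 3.74e-05). Slco1a4 was at 0 in all 16 libraries, and Cldn5, Cdh5, Esam and Tek had at most 6 reads in a group, so the sum is no measure of endothelial cells. In engrafted control mouse 5, with 22 reads of Ly6c1, it was 46.1 CPM. Markers of T and NK cells summed to 2.40 to 34.9 CPM and those of B and plasma cells to 15.6 to 78.2 CPM, with overlap between engrafted cells and host microglia on both sides. Their part in the results was not tested.

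**Figure D4:**
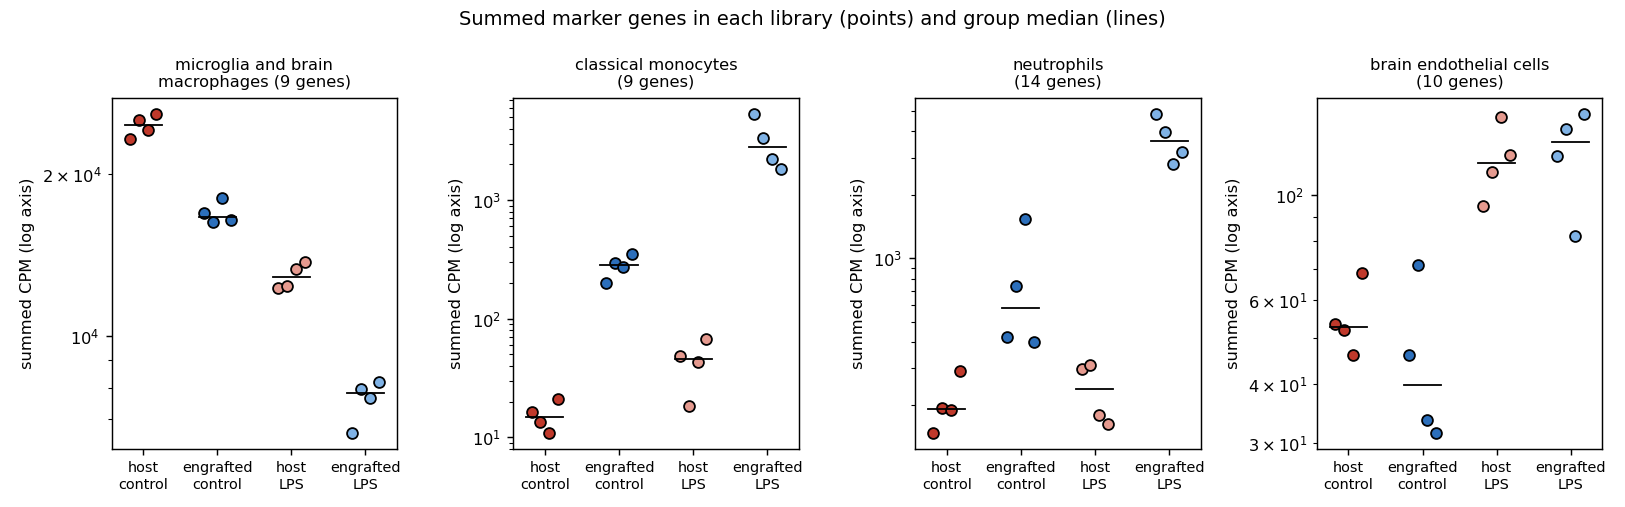
Summed CPM of 4 marker lists in each library (points, log axes) with the group median (lines). The classical monocyte sum is 1836 to 5338 CPM in engrafted LPS libraries and at most 67.0 CPM in host libraries, while the endothelial sum overlaps between engrafted cells and host microglia.

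Since Ly6a and Ly6e are known to respond to interferon, a list of 30 interferon-induced genes was read beside them. After LPS, 10 of 27 tested genes were higher in engrafted cells relative to host microglia (6.43% of all genes tested, median log2 fold change 0.82 against -0.01 over all genes), among them Ifi47 (3.73 ± 0.31, edgeR adjusted p = 8.41e-08), Ifitm3 (3.04 ± 0.28, adjusted p = 3.27e-07), Irf7 (2.77 ± 0.24, adjusted p = 1.4e-07) and Zbp1 (2.22 ± 0.23, adjusted p = 1.21e-06). Without LPS 9 of 28 were higher (5.66% of all genes tested), with a median of 0.70. LPS raised 15 of 30 in engrafted cells (9.27% of all genes tested) and lowered 1, Iigp1, and it raised 10 of 26 in host microglia (6.79%), with medians of 0.89 and 0.77. Members of the list thus rose in both populations. The LPS changes of both populations differed for 2 of the 30 (2.36% of all genes tested in that direction), Isg15 (1.79 ± 0.43, adjusted p = 0.0102) and Irf7 (1.70 ± 0.28, adjusted p = 0.000314), each with the larger change in engrafted cells.

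Few genes that make and attach the GPI anchor were called. Of 30 such genes, 20 to 24 could be tested in a comparison. Engrafted cells without LPS had more RNA of Pgap1, an inositol deacylase of the remodelling pathway (2.20 ± 0.37, edgeR adjusted p = 5.2e-05). In that comparison 5.66% of all genes tested were called higher, and DESeq2 called 1 anchor gene higher and 1 lower. The unadjusted p of edgeR was below 0.05 for 8 of 22 anchor genes (2937 of 8042 over all genes). After LPS, edgeR and DESeq2 both called 0 of 21 (1 had an unadjusted p below 0.05), where edgeR called 10.4% of all genes tested. LPS lowered Pigv in engrafted cells (-1.29 ± 0.31, adjusted p = 0.0028) and in host microglia (-1.21 ± 0.27, adjusted p = 0.00101), and Pigp in engrafted cells (-1.28 ± 0.33, adjusted p = 0.00432). With LPS, 744 of 7609 genes were called lower in engrafted cells and 765 of 8238 in host microglia. DESeq2 called 2 anchor genes lower in each population. The unadjusted p of edgeR was below 0.05 for 5 of 20 anchor genes in engrafted cells (3596 of 7609 over all genes) and 8 of 21 in host microglia (3945 of 8238). Pigv encodes a mannosyltransferase of anchor synthesis and Pigp a subunit of the enzyme that starts it.

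Few reads fell on the wider family of Ly6 and uPAR domain genes. The 45 listed names matched 39 genes of the table, of which 18 had no read in any library, 12 had 10 to 99 reads in all, and 1, Plaur, passed the filter. Plaur encodes the urokinase receptor. It stood at 10.4 to 28.5 CPM in unchallenged libraries and at 224.8 to 468.6 CPM after LPS, without overlap in either population. LPS raised it in engrafted cells by 4.02 ± 0.26 on the log2 scale (SE, n = 4 per group, edgeR adjusted p = 5.23e-10) and in host microglia by 3.24 ± 0.17 (adjusted p = 5.16e-12). The difference of 0.81 ± 0.33 between these changes did not pass (adjusted p = 0.165).

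A few others had low reads with a pattern, chosen after their values were seen and given without a test. Ly6k had 7, 14, 6 and 13 reads in host microglia of LPS mice 1 to 4 and 1, 2, 1 and 1 in those of control mice 5 to 8, and 4, 1, 0 and 1 in engrafted cells after LPS. Ly6g6d, a gene of the major histocompatibility region on chromosome 17, had 33 reads in host control and 24 in engrafted control libraries, against 4 and 2 after LPS. In Ly6g6e, which lies next to it, host control libraries held 31 reads and engrafted control libraries 5.

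**Figure D5:**
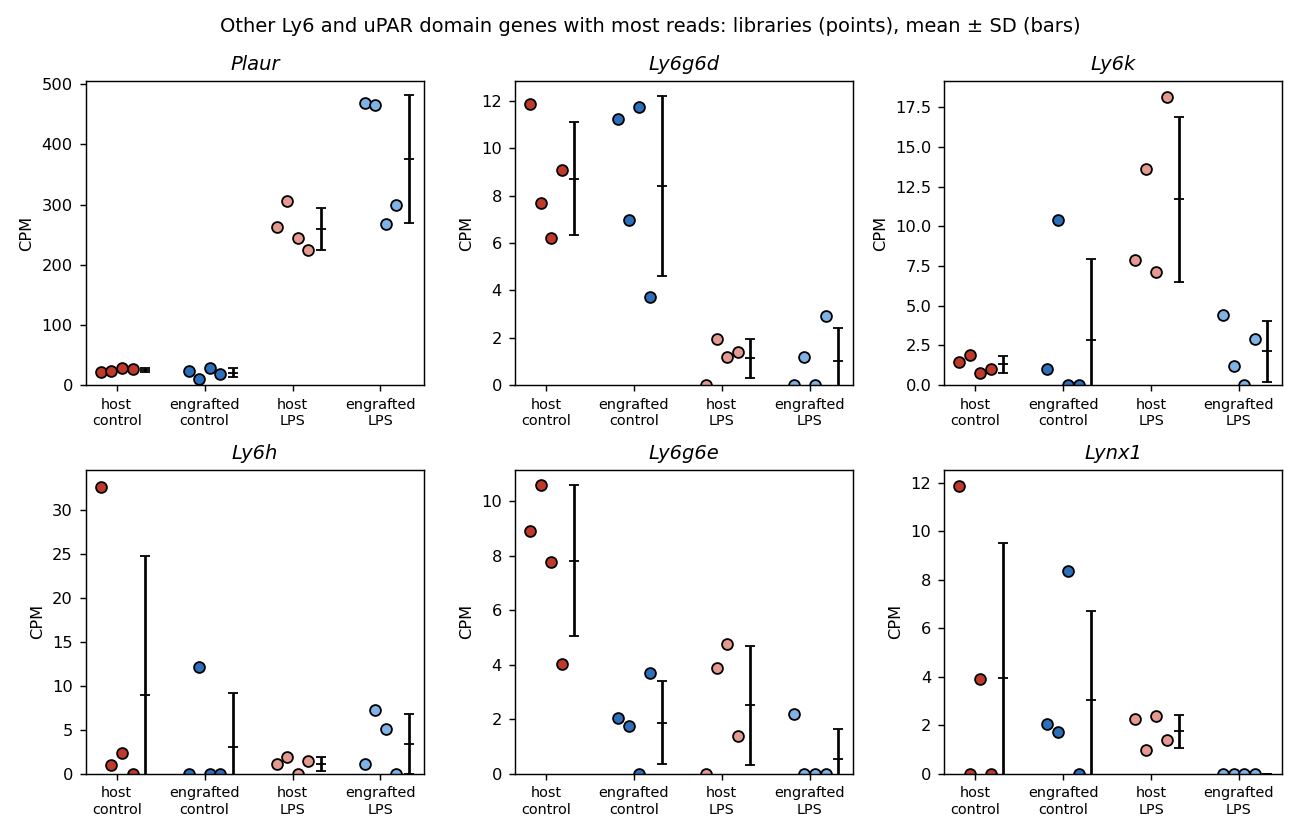
CPM (vertical, linear axes from 0) of the 6 other Ly6 and uPAR domain genes with most reads, with 1 point per library and the mean ± SD, cut off at 0. Plaur is the only one of them past the filter for low counts and stands at 224.8 CPM or more in all 8 LPS libraries, and the others stay below 33 CPM.

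For the 3 members with enough RNA, the genes with the most similar profile over the 16 libraries were sought among 8503 genes, by the root mean square difference between log2(CPM + 2) profiles centred on their means. For Ly6c2 they were Plac8 (0.712), S100a4 (0.766) and Acp5 (0.776). S100a4, a calcium-binding protein gene, averaged 7.81, 39.2, 3.30 and 543 CPM in host control, engrafted control, host LPS and engrafted LPS libraries, and Acp5, which encodes tartrate-resistant acid phosphatase, 2.74, 24.8, 4.38 and 298 CPM. Those of Ly6c2 in that order were 10.3, 30.9, 5.64 and 710 CPM.

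For Ly6a the nearest were the interferon-inducible GTPase gene Gbp9 (0.424), Pid1 (0.438) and the phosphofructokinase gene Pfkp (0.524). Gbp9 averaged 18.6, 37.3, 28.3 and 95.6 CPM in the same order of groups, against 26.3, 55.2, 38.7 and 198.5 CPM for Ly6a. For Ly6e they were Lgals9, which encodes galectin 9 (0.171), Necap2 (0.173) and Max (0.176). Lgals9 averaged 485, 384, 418 and 576 CPM against 3433, 2844, 2826 and 4406 CPM for Ly6e. The distances are a description over libraries that share mice and groups.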

How the data were processed

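Per the file header and the labels, the authors mapped reads of MARS-seq derived 3′ libraries to NCBI37 (mm9) with HISAT (0.1.5 in the submitters' processing notes) and kept uniquely mapped reads. HOMER then counted sense-strand reads over exons, with 1 model for each RefSeq gene. The deposited values are raw read counts for 24411 genes in 16 libraries, without normalization, and no removal of PCR duplicates is named. Gene reads were 395283 to 1203597 per library (median 820587.5).

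Members and lists were chosen with earlier results of these data known. Libraries were grouped by population and challenge from the sample titles. Genes were kept by edgeR's filter (minimum count 10, minimum total 15), scaled by TMM and tested in R 4.3.3 with edgeR 4.0.16 (quasi-likelihood, Benjamini-Hochberg adjustment over all genes tested). Calls needed more than 1 in absolute log2 fold change, fitted with prior count 2, and adjusted p under 0.05. Each standard error was derived from the F statistic. Members under the filter were compared by exact permutation tests of mean CPM in SciPy 1.17.1. Genes named beside the members are up to 4 called genes per list and comparison with the largest change, the 3 most similar profiles per member, and others said to be chosen after their values. The values of 1 gene that this rule names are not reported here. Sequences were aligned with Biopython 1.88. The tests were checked on simulated counts. p-values measure the spread between mice within a group. Replicate pairs differed by 1.98 to 8.64 times counting noise (24 pairs), so no library was a copy of another.

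Both populations of a mouse carry its number, since the series' design states that they came from the same animal. After removal of group means, Pearson's r between both libraries of a mouse was 0.14, 0.0162, 0.206, 0.122, 0.0228, -0.0306, 0.0482 and 0.0817 for mice 1 to 8. The mean r to host libraries of the other mice of that challenge was -0.04, -0.000374, -0.0622, -0.0516, -0.00283, 0.00805, -0.0155 and -0.03. It was the lower value in every mouse but mouse 6. A replicate block for the mouse was tried as an alternative, because the study's methods name no such term. Other alternatives were RLE size factors, library totals, DESeq2 1.42.0, no filter, all libraries in 1 fit, each library left out, and, added after the data were seen, edgeR's default prior count. No sequence of Ly6a, Ly6e or Ly6i promoters and no protein was used here.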

Additional observations from a re-analysis of the deposited data

Results flagged for a closer look

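The LPS changes of engrafted cells and host microglia differed for 3 members by the interaction test of edgeR (quasi-likelihood, adjusted over all genes tested). The difference was 5.06 on the log2 scale for Ly6c2 (adjusted p = 9.87e-07), 1.31 for Ly6a (adjusted p = 0.024) and 0.91 for Ly6e (adjusted p = 0.00369), each in the direction of a larger change in engrafted cells, and that of Ly6e was under 2-fold. All 4 engrafted LPS libraries exceeded all 4 engrafted control libraries for each of these 3 genes.

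In Ly6g, the gap of 1 library to the other 3 of its group made up the whole range of the group. The engrafted control library of mouse 5 had 1 read (1.024 CPM), and the other 3 had 0. It is also the library with 158 CPM of Krt8. A group in which only 1 library has any read is always flagged by this rule, and 1 read is under the limit that a count of 0 allows.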

How the results depend on the processing

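No fitted log2 fold change of Ly6e, Ly6a or Ly6c2 changed direction among the recomputed values. Ly6c2 kept its calls in engrafted cells against host microglia, with LPS in engrafted cells and in the difference of both LPS changes under each alternative. Among members under the filter, the difference of Ly6c1 with LPS in engrafted cells (-2.77 CPM) turned positive without engrafted control mouse 5. Ly6a without LPS was the weak call. The count of members higher in engrafted cells without LPS fell from 2 to 1 with library totals, with all 16 libraries in 1 fit and with the mouse as a block (Ly6a 0.97), and was 1 to 2 when single libraries were left out. The block changed no other call of a member. Leaving out single libraries gave 1 to 2 members with a called difference between LPS changes and 0 to 1 lower with LPS in host microglia (Ly6c2, without host control mouse 7), and 130 to 234 genes with a smaller LPS change in engrafted cells (main 212; 130 without host LPS mouse 3 and 141 without host control mouse 8). With no filter on low counts, 827 genes were higher in engrafted cells without LPS (main 455), 815 after LPS (main 504), and 1195 were lower with LPS in engrafted cells (main 744). edgeR's default prior count, added later, changed no call of a member. At this depth, counts of Ly6c1, Ly6i and Ly6g limit every statement on them, and with 4 libraries against 4 an exact permutation test cannot go below p = 0.0286.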
